A study of Mus musculus with 6 samples.

Results

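The genes described here encode proteins of pre-mRNA splicing. Among them are the SR proteins (Srsf genes), the hnRNP proteins (Hnrnp genes) and the subunits of splicing factors 3a and 3b (Sf3a and Sf3b genes). The others are proteins of the small nuclear ribonucleoproteins (Snrnp and Snrp genes). The genes were chosen by symbol from a table of 49997 gene symbols, leaving out symbols with "-ps", which gave 60 genes. Of these, 50 had 60 or more counts summed over the 6 libraries and are reported. The choice used the symbol and the summed count, not the difference between genotypes. Each of the 50 also passed the count filter of the test, which kept 7792 genes in all.

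The RNA came from small pre-B cells purified by flow cytometry from bone marrow of C57BL/6 mice aged 6 to 12 weeks. One group was wild type (WT) and the other carried the ΔrsCBE genotype, written rsCBE in the sample labels, with 3 libraries each and no treatment named. The title of the series names chromatin topology that depends on CTCF, a DNA-binding protein, and receptor editing, in which a light chain rearrangement is replaced by another. The labels name neither the deleted interval nor the number of mice behind a library, so the p-values measure the spread between these libraries, which may be technical.

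Splicing removes introns from pre-mRNA. SR proteins carry stretches rich in arginine and serine, mostly bind exonic sequences and promote the use of nearby splice sites. The hnRNP proteins coat nascent transcripts and often oppose the use of a site. The snRNPs pair with the splice sites and the branch point and form the catalytic spliceosome. In lymphocytes, regulated splicing sets for example the isoforms of the phosphatase CD45 and the membrane and secreted forms of immunoglobulin heavy chain. Several SR and hnRNP genes also limit their own output through alternative exons that lead to decay of the transcript. Counts per gene do not separate such isoforms.

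Total counts ranged from 428106 to 1300805 per library. Levels are given as CPM (counts per 1e6 counts of the tested genes, TMM-scaled). The detection floor, set at 3 counts, was 2.38 to 7.36 CPM. ΔrsCBE replicate 1 stood apart from the other libraries of its genotype: chi-square per degree of freedom against counting noise was 3.18 and 2.52 for its pairs and 1.78 to 1.84 for all other replicate pairs. ΔrsCBE replicates 2 and 3 had 1603 and 1430 counts of Xist, the noncoding RNA of the inactive X chromosome, and the other libraries at most 1, so sex cannot be told apart from genotype or library. Summed B-lineage and pre-B markers lay at 12071 to 14428 CPM in WT and 12971 to 13664 CPM in ΔrsCBE, with all 12 detected. T and NK cell markers summed to at most 2.53 CPM in any library (8 of 10 at 0, among them Cd3e), and myeloid markers to 55.4 to 88.3 CPM in WT and 61.7 to 75.8 CPM in ΔrsCBE (3 of 10 at 0: S100a8, Elane and Ly6g). Of 26 tested cell-cycle genes, 17 passed the threshold and were lower in ΔrsCBE (summed level 7489 to 8242 CPM in WT, 3183 to 5067 in ΔrsCBE). Of 14 tested early-response genes, 5 passed and were higher (3710 to 4265 against 4990 to 7179 CPM). Both lists moved with genotype beside each result that follows, and their part in it was not tested. In bulk samples, fewer cells of a type and less RNA per cell cannot be told apart.

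No splicing protein gene differed between the genotypes past the threshold. The test was the quasi-likelihood test of edgeR, and the threshold 0.05 on p-values adjusted over all tested genes (Benjamini-Hochberg). The count with edgeR was 0 of 50, against 1.69% of all tested genes (132 of 7792; 1.49% lower and 0.205% higher in ΔrsCBE), and it was also 0 with the DESeq2 Wald test. An unadjusted p under 0.05 was reached by 3 members, Hnrnpr, Hnrnpab and Snrnp70, against 10.2% of all tested genes. The CPM values of the genotypes did not overlap for 5 members, 4 of them lower in ΔrsCBE and 1 higher, against 16.1% of all tested genes. The median log2 fold change (ΔrsCBE minus WT) was -0.01 over the members, with 23 above 0 and 27 below, and 0.01 over all tested genes. The range was -0.49 for Hnrnpr to 0.47 for Sf3b5.

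**Figure D1:**
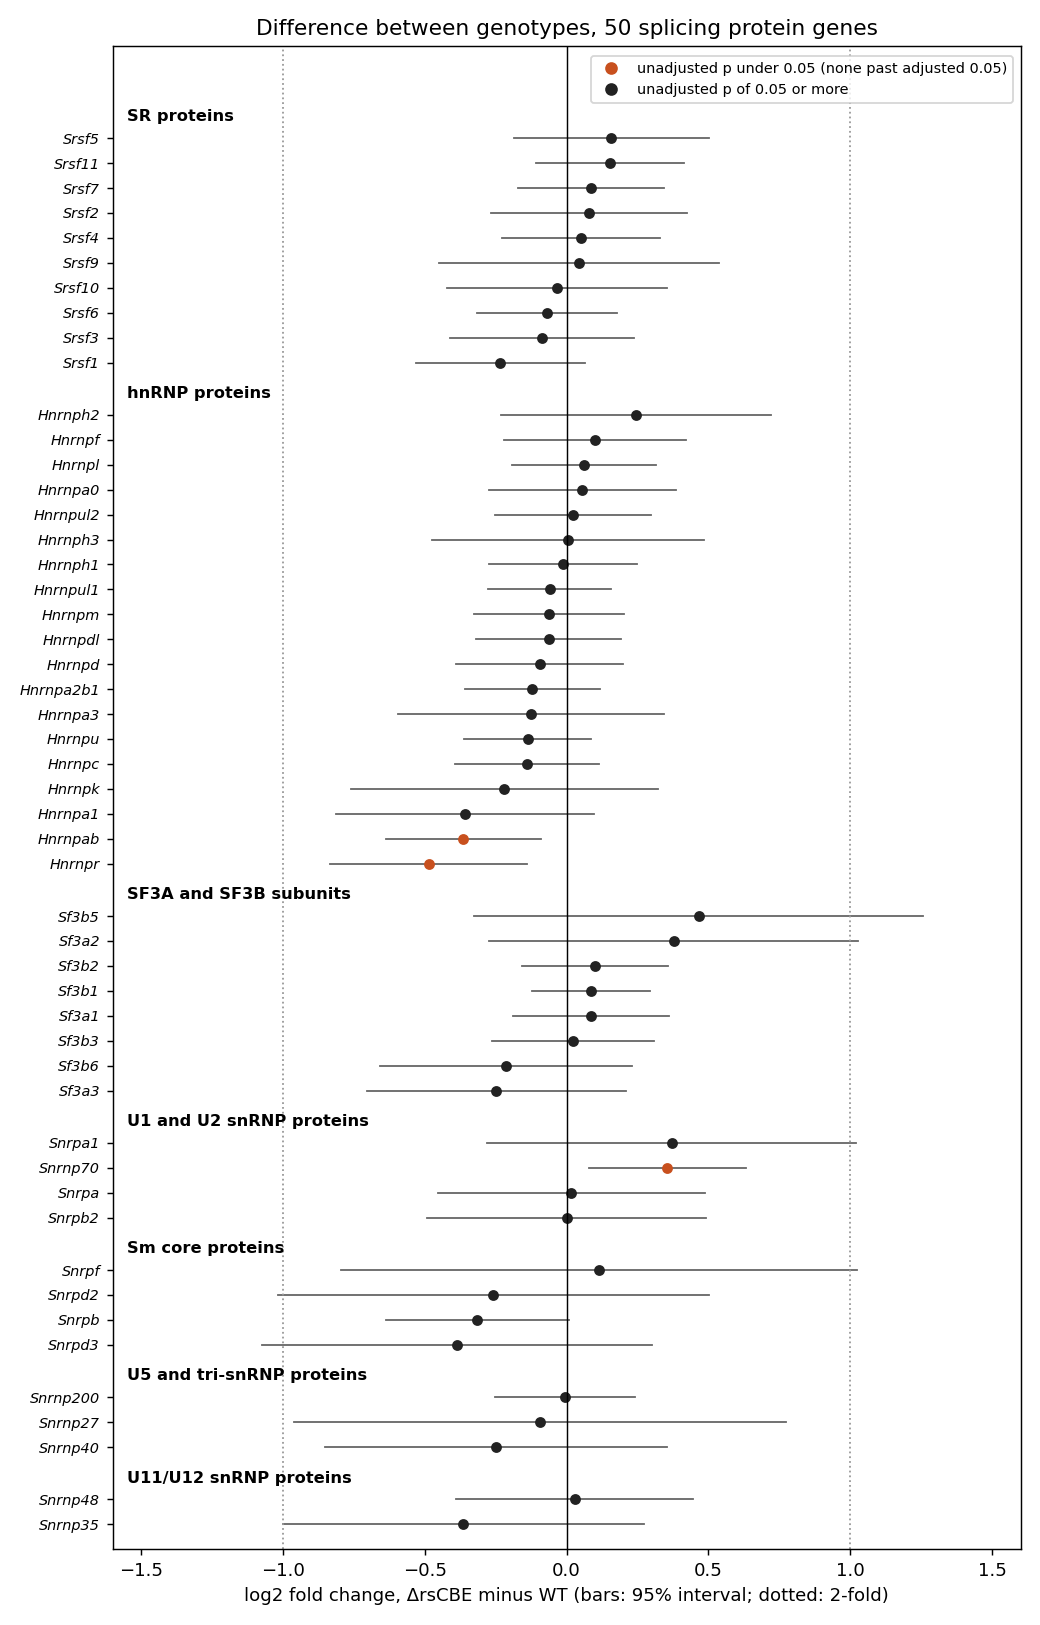
Log2 fold change (ΔrsCBE minus WT) of the 50 genes by role, with the 95% interval of the edgeR fit as bars and 2-fold as dotted lines. Points lie between -0.49 and 0.47, and 43 intervals stay within 2-fold.

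The intervals show how large a difference these libraries could still hold. For 43 of the 50 genes the 95% interval of the fold change stayed within 2-fold in either direction, and for 31 within 1.5-fold. The other 7 had fewer than 200 counts and their intervals reached 2-fold. Precision followed depth: the standard error of the log2 fold change had a median of 0.12 for the 20 members with 1000 or more counts, 0.19 for the 21 with at least 200 but under 1000, and 0.33 for the 9 below 200. Hnrnpk, with 3205 counts, had a standard error of 0.23, the highest of the 20 deep members.

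**Figure D2:**
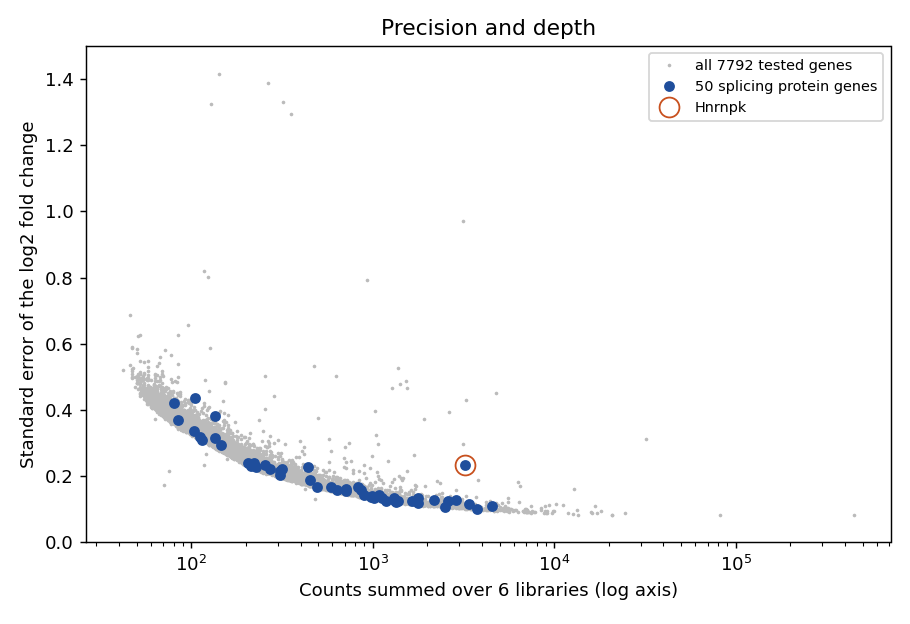
Standard error of the log2 fold change (vertical axis) against counts summed over 6 libraries (horizontal log axis) for all 7792 tested genes (grey) and the 50 splicing protein genes (blue). Hnrnpk (ringed, standard error 0.23) lies above the members of similar depth.

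The promoter sequences were set beside all listed windows, the members' own included, as a feature that the choice by symbol did not use. The members also had to reach 60 counts, a limit not set for all windows. The part of expression in the differences was not tested. RefSeq promoter windows on GRCm38.p6, from 250 bases before to 50 after a start, were given for 46 of the 50 genes (60 windows). Their median GC content was 61.0% against 52.7% for all 32851 windows, with a median of 25.5 against 7 CG dinucleotides. The GC box GGGCGG, read on both strands, occurred in 78.3% of member windows and 35.7% of all windows. The ETS motif CCGGAAG occurred in 33.3% and 8.86%, and the NRF1 motif in 20% and 4.60%. The CCAAT box (CCAAT) occurred in 43.3% and 37.4%, TATAAA in 11.7% and 13.6%, the YY1 motif AAGATGGC in 3.33% and 2.75%, the CRE TGACGTCA in 1.67% and 1.79%, and the E2F motif TTTGGCGC in 1.67% and 0.514%. A match is a description of letters, not of a bound site, and motifs rich in G and C are more frequent in GC-rich windows.

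The 250 bases before the start are shown for the 3 members with an unadjusted p under 0.05 and for Hnrnpk, with the searched motifs in capitals. The windows are written in the direction of the gene, and for Hnrnpr the first of 2 listed starts was used.
Snrnp70, chr7:45395743-45395992, minus strand: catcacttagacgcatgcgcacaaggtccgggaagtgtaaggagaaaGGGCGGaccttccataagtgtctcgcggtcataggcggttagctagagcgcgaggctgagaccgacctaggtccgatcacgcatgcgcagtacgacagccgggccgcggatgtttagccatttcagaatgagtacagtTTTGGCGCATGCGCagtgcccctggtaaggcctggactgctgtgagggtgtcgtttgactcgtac
Hnrnpr, chr4:136310692-136310941, plus strand: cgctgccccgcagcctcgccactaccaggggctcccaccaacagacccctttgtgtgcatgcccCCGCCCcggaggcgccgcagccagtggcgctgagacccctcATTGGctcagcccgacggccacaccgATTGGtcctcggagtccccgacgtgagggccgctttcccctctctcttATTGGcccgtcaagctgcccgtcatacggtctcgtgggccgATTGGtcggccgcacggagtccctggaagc
Hnrnpab, chr11:51606882-51607131, minus strand: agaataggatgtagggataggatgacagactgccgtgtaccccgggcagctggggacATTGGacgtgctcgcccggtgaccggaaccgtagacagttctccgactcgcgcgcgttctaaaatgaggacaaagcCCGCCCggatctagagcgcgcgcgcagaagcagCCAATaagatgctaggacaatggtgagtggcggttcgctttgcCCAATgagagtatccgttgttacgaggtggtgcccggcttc
Hnrnpk, chr13:58402118-58402367, minus strand: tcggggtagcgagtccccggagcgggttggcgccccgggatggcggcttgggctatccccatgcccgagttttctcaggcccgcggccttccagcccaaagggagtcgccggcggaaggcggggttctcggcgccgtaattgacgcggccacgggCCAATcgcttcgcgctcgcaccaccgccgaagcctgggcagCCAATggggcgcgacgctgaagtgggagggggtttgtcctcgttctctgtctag
In Snrnp70 the capitals mark a GC box and, nearer the start, the one E2F motif among the member windows, which overlaps an NRF1 motif. In Hnrnpr they mark a GC box and 4 CCAAT boxes, read as ATTGG. Hnrnpab has a GC box between CCAAT boxes, and Hnrnpk has 2 CCAAT boxes and none of the other motifs in this stretch. For Hnrnpab the bases just after the RefSeq start do not occur in a GENCODE M21 transcript of the gene. For Snrnp70, Hnrnpr and Hnrnpk they do, but the Hnrnpk window lies inside the gene as annotated there.

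All 10 reported Srsf genes had an interval within 1.5-fold, none passed the threshold, and their log2 fold changes ran from -0.23 to 0.16 with a median of 0.05. Srsf11, an SR-like protein and the most abundant of them in CPM, measured 500, 333 and 417 CPM in the WT libraries (here and below in the order of replicates 1 to 3) and 453, 506 and 440 CPM in the ΔrsCBE libraries. The ΔrsCBE libraries lay inside or just above the wider WT range. The log2 fold change was 0.15, standard error 0.13 (edgeR adjusted p = 0.764), and 0.04 to 0.30 with 1 library left out. Srsf1, the SR protein first purified as a splicing factor and the member with the lowest value of its family, had 247, 284 and 215 CPM in WT and 176, 241 and 206 CPM in ΔrsCBE. Its groups overlapped and its log2 fold change was -0.23 with an interval from -0.53 to 0.06. Srsf5, which had the highest value of the family, had 125, 93.2 and 117 CPM in WT and 126, 110 and 147 CPM in ΔrsCBE (log2 fold change 0.16, edgeR adjusted p = 0.824). Srsf2 and Srsf3, a pair of SR proteins that also act in transcription and mRNA export, had log2 fold changes of 0.08 and -0.09. Srsf6 had the lowest standard error of the family, with WT at 285 ± 13.5 CPM and ΔrsCBE at 271 ± 7.36 CPM (SD, n = 3).

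The hnRNP genes held both members lowest by p. Of 19 Hnrnp genes, 13 had a log2 fold change below 0 and 6 above, with a median of -0.06. All 19 intervals stayed within 2-fold. Hnrnpr (chromosome 4, 136310942 to 136359447, plus strand, GENCODE M21 on GRCm38) encodes an RNA-binding protein close to Syncrip. Its level was 114, 122.6 and 122 CPM in WT, and 75.05, 95.1 and 84.6 CPM in ΔrsCBE. Every ΔrsCBE library lay below every WT library. The log2 fold change was -0.49, standard error 0.17, with an interval from -0.83 to -0.14, short of the threshold (edgeR adjusted p = 0.2004, and 0.636 with the DESeq2 Wald test). Its sign was the same under each alternative run. Its exons overlap those of Gm27022 on the opposite strand.

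Hnrnpab (chromosome 11, 51600100 to 51606847, minus strand), which encodes an AU-rich RNA and single-strand binding protein, had 389, 324 and 474 CPM in WT and 278, 348 and 309 CPM in ΔrsCBE. WT replicate 2 lay below ΔrsCBE replicate 2, so the groups overlapped. Its log2 fold change was -0.36, standard error 0.13 (edgeR adjusted p = 0.245), and -0.19 without WT replicate 3. Its exons overlap those of Phykpl on the opposite strand, so its count is uncertain if strands were not separated. Hnrnpu, a nuclear scaffold protein and the most abundant member in CPM, had 1071, 868 and 975 CPM in WT and 777, 1004 and 871 CPM in ΔrsCBE. Its groups overlapped widely (log2 fold change -0.14, interval -0.36 to 0.09). The gene with the highest value of the family was Hnrnph2, with 37.3, 39.2 and 41.97 CPM in WT and 53.3, 40.3 and 49.3 CPM in ΔrsCBE (log2 fold change 0.24, edgeR adjusted p = 0.796). It is the 1 reported member on the X chromosome, and the ΔrsCBE library without Xist counts had its highest level.

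Many hnRNP genes were lowest in the same library. ΔrsCBE replicate 1 was the lowest of the 6 libraries for 19 of the 50 members and for 9 of the 19 Hnrnp genes. The same library was lowest for 18.2% of all tested genes. Hnrnp genes together took 0.498% of its counts (95% Wilson interval 0.483% to 0.513%) and 0.575% to 0.621% in the other 5 libraries, none of whose intervals reached below 0.553%. These intervals cover counting error only.

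Hnrnpk (chromosome 13, 58391142 to 58403343, minus strand), a protein that binds cytosine-rich RNA and DNA, is described because of its values, which were seen first. It had 759, 763 and 642 CPM in WT and 396, 795 and 655 CPM in ΔrsCBE. ΔrsCBE replicate 1 lay far below all others, and ΔrsCBE replicates 2 and 3 lay within or above the WT range. With all libraries the log2 fold change was -0.22, standard error 0.23 (edgeR adjusted p = 0.833). Without ΔrsCBE replicate 1 it was 0.02 (edgeR adjusted p = 0.981). Against WT with ΔrsCBE replicate 1 as the sole ΔrsCBE library, it was -0.85 (edgeR adjusted p = 3.69e-05), the 1 member called there, against 2.06% of the genes tested in that fit. There the spread comes from the WT libraries alone and the lone library is assumed to vary like them, and since that library's low value led to the choice of Hnrnpk, the p restates it. In the fit with library sex as a covariate it was -0.86 (edgeR adjusted p = 0.00178), the 1 member called, against 1.12% of all genes, and 9 of 50 members were lower at an unadjusted p under 0.05, against 6.2% of all genes. Sf3b5 and Srsf2 went the other way in the covariate fit. In both fits the ΔrsCBE value rests on ΔrsCBE replicate 1. Of the 50-base stretches of its longest coding transcript, 37.8% also occur in transcripts of 3 other genes, among them Gm7964 and Rmi1, so part of its reads may be placed elsewhere. In the fit with that sole ΔrsCBE library, 10 of 52 members had an unadjusted p under 0.05 and a lower level, among them Hnrnpa2b1, Hnrnpab, Hnrnpu and Srsf1, against 6.06% of all genes. Others went the other way, Sf3b5, Snrpe and Srsf2 among them. These values describe 1 library against the spread within WT and not the genotype.

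**Figure D3:**
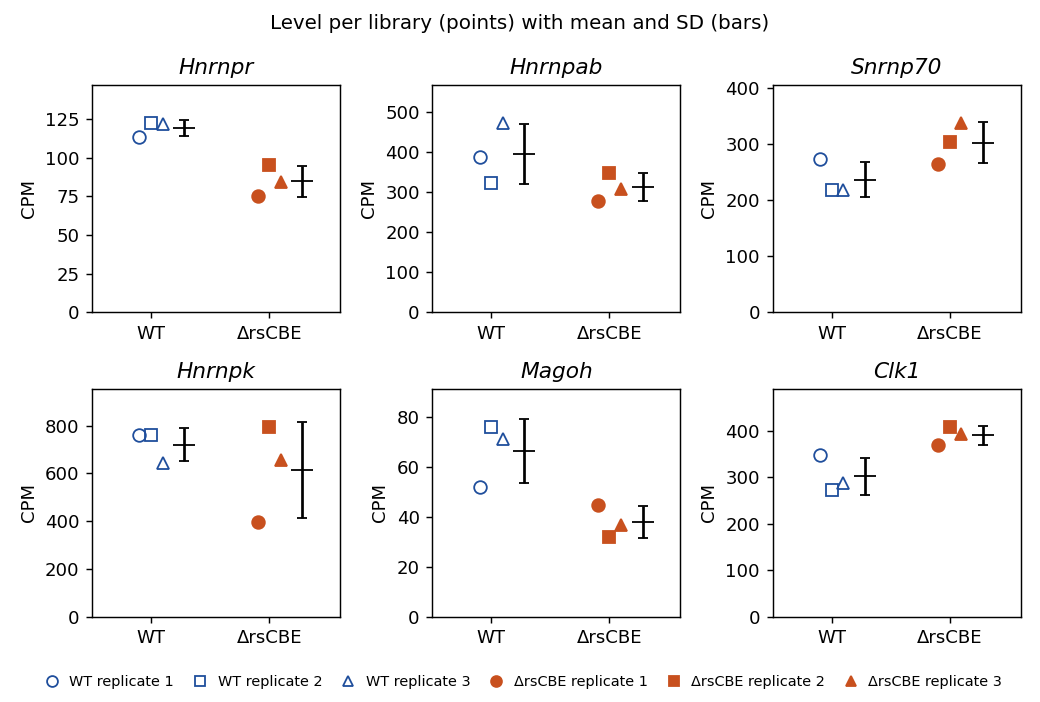
CPM in each library (points, marker shape giving the replicate) with mean and SD over 3 libraries (bars) for 4 splicing protein genes and the splicing-linked genes Magoh and Clk1, vertical axes from 0. In Hnrnpk ΔrsCBE replicate 1 is at 396 CPM while the other 5 libraries are at 642 or above.

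The SF3A and SF3B complexes are parts of the U2 snRNP that grip the branch point. Of 8 reported subunit genes, 6 had a log2 fold change above 0 and 2 below, with a median of 0.08 and none past the threshold. Sf3b1, the large subunit that holds the branch point adenosine and is often mutated in blood cancers, had 688, 799 and 762 CPM in WT and 804, 767 and 813 CPM in ΔrsCBE. Its standard error of 0.10 was the lowest of the 50 genes, and its interval ran from -0.12 to 0.29. Sf3a1 had 209, 196 and 199 CPM in WT and 203, 237 and 199.6 CPM in ΔrsCBE (log2 fold change 0.08).

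The smaller subunits were less precise. Sf3b5, whose log2 fold change of 0.47 was the highest of all members, had 38.9, 9.81 and 19.8 CPM in WT and 50.8, 21.7 and 25.3 CPM in ΔrsCBE. Replicate 1 was the highest library in each genotype, the groups overlapped, and the value was -0.002 without ΔrsCBE replicate 1 (edgeR adjusted p = 0.764 with all libraries). Sf3a2 had 12.98, 29.4 and 27.7 CPM in WT and 30.3, 36.2 and 25.3 CPM in ΔrsCBE (log2 fold change 0.38, interval -0.27 to 1.03, and 0.12 to 0.63 with 1 library left out). For the lowest values of the families, Sf3a3 had 50.3, 63.8 and 85.5 CPM in WT and 53.3, 71.3 and 49.3 CPM in ΔrsCBE (log2 fold change -0.25). Sf3b6, the p14 subunit that contacts the branch point, had 48.7, 93.2 and 69.7 CPM in WT and 60.5, 56.8 and 60.6 CPM in ΔrsCBE (log2 fold change -0.21, and -0.40 to -0.04 with 1 library left out). In Sf3b6 the ΔrsCBE libraries were tightly grouped inside the wide WT range.

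Among the snRNP protein genes, Snrnp70, the gene of U1-70K, had the smallest p. Snrnp70 (chromosome 7, 45376453 to 45395742, minus strand) encodes the U1 protein that binds the U1 RNA and contacts SR proteins at the 5′ splice site. It had 273, 218 and 218 CPM in WT and 264, 304 and 337 CPM in ΔrsCBE. ΔrsCBE replicate 1 lay below WT replicate 1, so the groups overlapped by that pair. The log2 fold change was 0.36, standard error 0.13, with an interval from 0.08 to 0.63 (edgeR adjusted p = 0.281). It was 0.44 without ΔrsCBE replicate 1 (edgeR adjusted p = 0.0839) and 0.16 with the sex covariate (edgeR adjusted p = 0.791), and its sign was the same under each alternative run. None of its 50-base stretches occurs in another annotated transcript. Of the other U1 and U2 protein genes, Snrpa, the U1 A protein, had 46.3 ± 9.28 and 46.8 ± 3.95 CPM, and Snrpb2, the U2 B′′ protein, had 45.7 ± 0.769 and 45.4 ± 8.94 CPM in WT and ΔrsCBE (SD, n = 3). Snrpa1, the U2 A′ protein, had 17.8, 17.2 and 22.2 CPM in WT and 26.6, 22.7 and 27.8 CPM in ΔrsCBE. Its groups did not overlap, ΔrsCBE being higher, as for 7.23% of all tested genes, but with 112 counts its log2 fold change of 0.37 had an interval from -0.28 to 1.02 (edgeR adjusted p = 0.772).

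The Sm proteins form the ring around the RNA of each spliceosomal snRNP except U6. Of the 7 canonical Sm genes, 4 had enough counts, and 3 of these had a log2 fold change below 0. Snrpb had 136, 179 and 138 CPM in WT and 116, 125 and 115 CPM in ΔrsCBE. Every ΔrsCBE library lay below every WT library, as for 8.92% of all tested genes, and the log2 fold change was -0.31 with an interval from -0.64 to 0.01 (edgeR adjusted p = 0.507). Snrpd3 had 16.2, 29.4 and 26.9 CPM in WT and 15.7, 21.7 and 17.7 CPM in ΔrsCBE (log2 fold change -0.39, interval -1.08 to 0.30). Snrpf had the 1 positive value (0.12), which is uncertain: 89.5% of its 50-base stretches also occur in transcripts of other genes, among them Ccdc38, whose exons overlap it on the opposite strand.

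The later-acting and minor snRNP proteins gave no call either. Snrnp200, the U5 helicase that unwinds the U4/U6 duplex, had 333, 368 and 381 CPM in WT and 399, 360 and 320 CPM in ΔrsCBE. Its means of 360 ± 24.99 and 360 ± 39.95 CPM (SD, n = 3) gave a log2 fold change of -0.01 with an interval from -0.25 to 0.24. Snrnp35 and Snrnp48 belong to the U11/U12 snRNP, which removes the rare minor introns. Snrnp35 had 27.6, 22.1 and 27.7 CPM in WT and 19.4, 21.7 and 20.2 CPM in ΔrsCBE, all 3 ΔrsCBE libraries being lower (log2 fold change -0.36, edgeR adjusted p = 0.771). Snrnp48 had means of 63.5 ± 7.05 and 64.4 ± 8.61 CPM. Hnrnpdl, with 250 ± 5.93 and 239 ± 3.99 CPM (SD, n = 3), was the remaining gene without overlap, at a log2 fold change of -0.06.

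**Figure D4:**
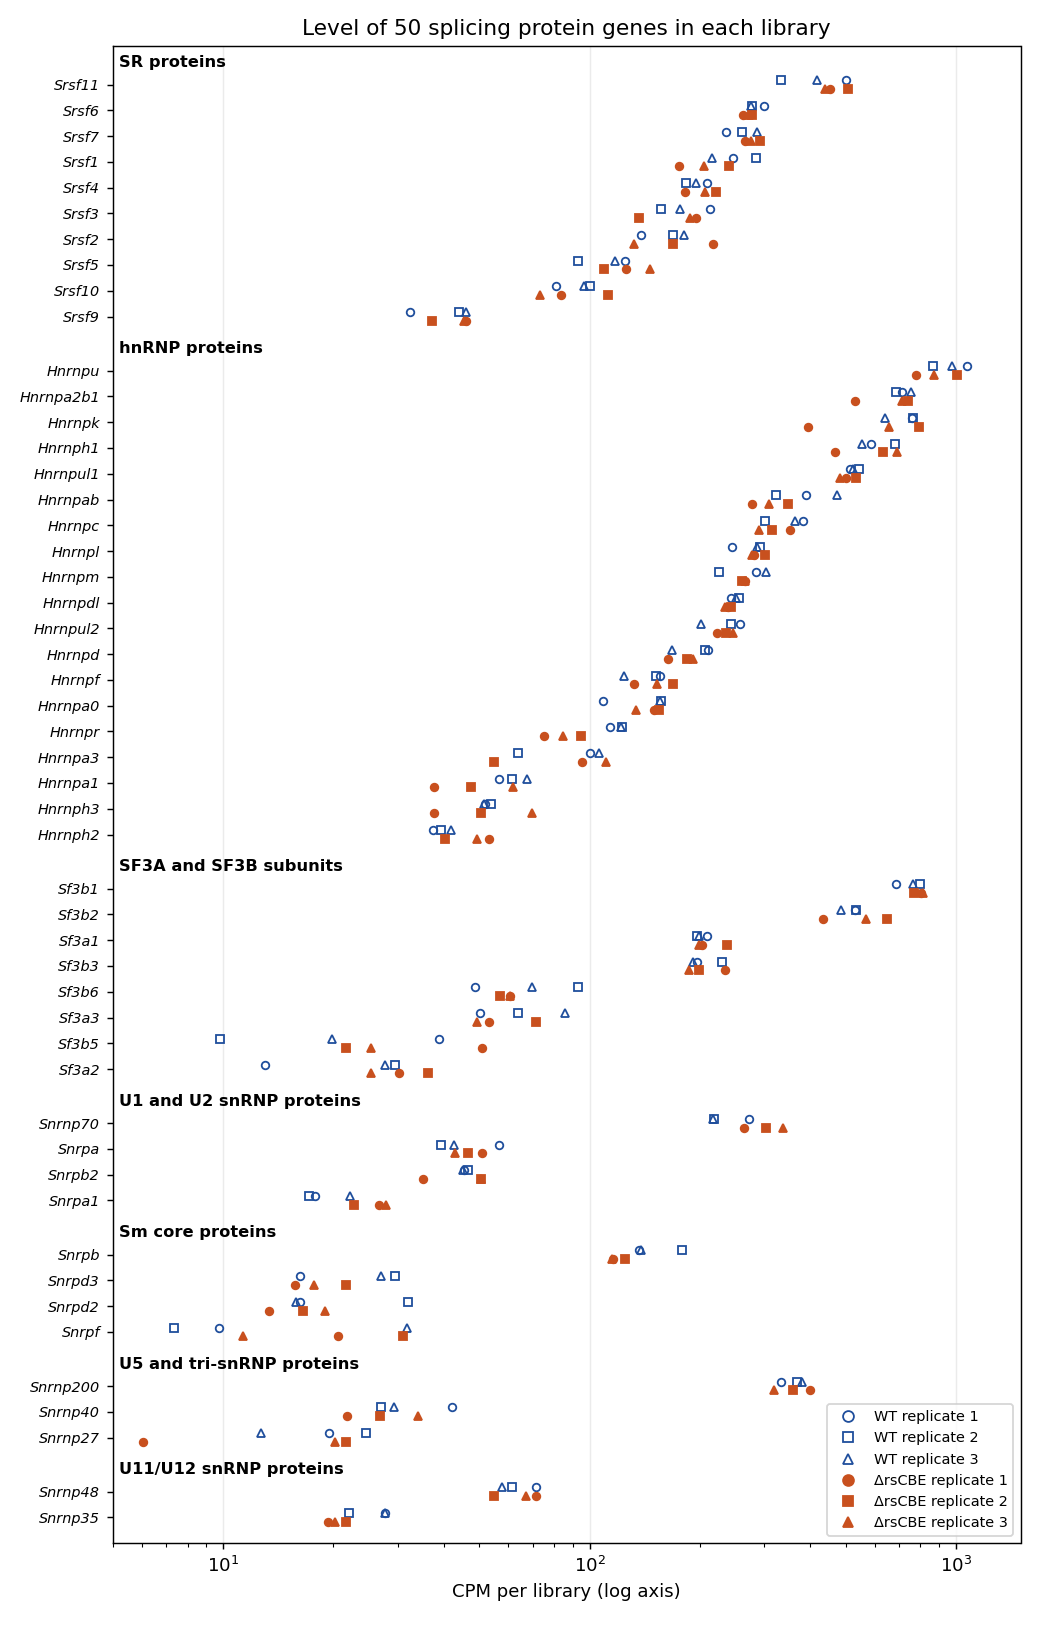
CPM of the 50 genes in each library on a log axis, grouped by role and ordered by mean level, WT as open and ΔrsCBE as filled symbols. Genotypes overlap in 45 of the 50 rows.

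Between genes, levels were compared per kilobase of the median coding transcript in GENCODE M21. The order of genes depends on this choice of length. For Hnrnpa2b1 the length was 1647 bases, against 6584 bases over all its annotated exons. For Hnrnpab it was 2013 against 2782 bases. Hnrnpa2b1, an abundant nuclear hnRNP, was the highest in all 6 libraries, at 435 CPM per kilobase in WT and 401 in ΔrsCBE. Hnrnph1 followed with a mean of 271 ± 38.0 and Hnrnpk with 251 ± 55.2 CPM per kilobase (SD over 6 libraries). These neighbours did not differ beyond their spread. Over the libraries Hnrnph1 ranked 2 to 3 and Hnrnpk 2 to 7. Hnrnpab (176), Sf3b2 (165), Srsf7 (162), Snrnp70 (155), Hnrnpul1 (154) and Srsf11 (153) formed a run of close levels. Sf3b5 (7.22), Snrpd3 (12.2) and Snrpd2 (13.2) were the lowest reported members per kilobase. Levels of genes that share sequence with another annotated gene are uncertain. The sharing was read on both strands and includes exons that overlap at the same place. Examples are Srsf4 with Gm12992 (opposite strand) and Hnrnpm with March2 (same strand). More than 25% of the 50-base stretches were shared with another gene for 12 of the 50 members, and 11 shared none.

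Summed over the 50 genes, the share of all counts was 1.11%, 1.04% and 1.07% for WT, and 0.984%, 1.11% and 1.06% for ΔrsCBE. The lowest share was that of ΔrsCBE replicate 1. Means were 1.08% ± 0.0315 and 1.05% ± 0.0648 (SD, n = 3). SR genes took 0.194% ± 0.0123 in WT and 0.199% ± 0.00509 in ΔrsCBE. Library scores, the mean deviation of log2 CPM from each gene's own mean, ran from -0.09 to 0.05 for the 50 genes. For the cell-cycle list they ran from 0.44 to 0.58 in WT and from -0.75 to -0.16 in ΔrsCBE.

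**Figure D5:**
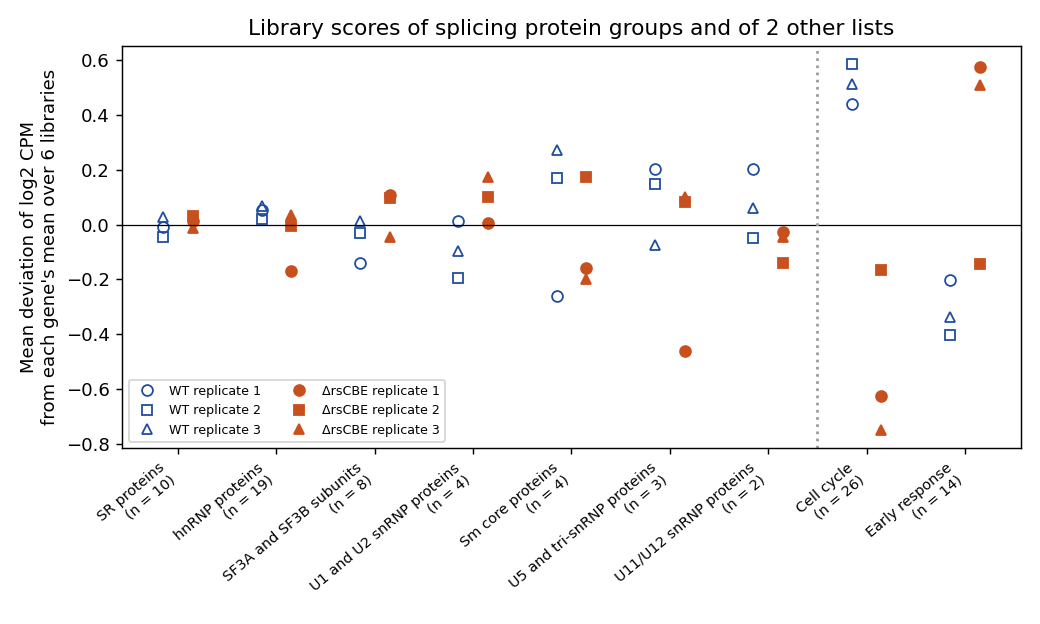
Score of each library (mean deviation of log2 CPM from the gene means) for 7 groups of splicing protein genes and, right of the dotted line, the cell-cycle and early-response lists, with the number of genes in brackets. SR scores stay between -0.05 and 0.03. Scores of smaller groups spread more widely. Sm scores run from -0.26 to 0.27, and the U5 and tri-snRNP score is -0.46 in ΔrsCBE replicate 1. That score is a mean over 3 genes, and Snrnp27 among them has 5 counts in that library. The summed share of counts of these genes is 0.042% there and 0.0365% to 0.041% in the other libraries. Cell-cycle scores of the genotypes do not overlap.

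Of the 60 genes, 10 had fewer than 60 counts. Just inside the limit were Snrnp27 with 80 counts and Snrpd2 with 85, and just outside were Snrpe with 59 and Snrpd1 with 55. Snrpd1, a Sm protein, had 16.2, 9.81 and 17.4 CPM in WT and 2.42, 12.4 and 6.31 CPM in ΔrsCBE. Sf3b4, Snrpc, Snrnp25, Snrpg and Snrpert, annotated as a processed pseudogene, had 45, 19, 14, 7 and 48 counts. Hnrnpll, which regulates CD45 splicing in lymphocytes, Srsf12 and the imprinted Snrpn are listed at 0 in all libraries, which at this depth allows up to 2.38 CPM in the deepest. Snrpn shares exons on the same strand with Snurf and Gm38393 in GENCODE M21. Hnrnpll and Srsf12 overlap no other exon and share no 50-base stretch with another annotated transcript.

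Other splicing genes, taken from 5 lists, held no call either. Of 151 listed genes 135 were tested, 0 passed the threshold with edgeR or with the DESeq2 Wald test, and 9 had an unadjusted p under 0.05, against 10.2% of all genes. Their median log2 fold change was -0.001, with 67 above 0 and 68 below. Closest to the threshold was Magoh, a core protein of the exon junction complex that marks spliced mRNA. It had 51.9, 76.0 and 71.3 CPM in WT and 44.8, 32.0 and 36.6 CPM in ΔrsCBE, and each ΔrsCBE library lay below each WT library. Its log2 fold change was -0.82, standard error 0.23 (edgeR adjusted p = 0.0677). It passed without WT replicate 1 (edgeR adjusted p = 0.0470) and without ΔrsCBE replicate 1 (0.0434).

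Among 24 SR-related proteins and SR protein kinases, Clk1, a kinase that phosphorylates SR proteins, had the smallest p. It had 347, 272 and 287 CPM in WT and 369, 408 and 393 CPM in ΔrsCBE, with no overlap (log2 fold change 0.37, edgeR adjusted p = 0.164). Snw1, a spliceosome component, led 61 core spliceosome genes with 126 ± 4.91 and 164 ± 32.7 CPM (SD, n = 3; log2 fold change 0.38, edgeR adjusted p = 0.377). Elavl1, an RNA-stabilising protein, led 31 other RNA-binding regulators with 178 ± 15.1 and 136 ± 4.64 CPM (log2 fold change -0.38, edgeR adjusted p = 0.286). Coil, the Cajal body protein coilin, led 12 snRNP assembly genes with 27.1 ± 12.53 and 16.996 ± 1.09 CPM (log2 fold change -0.67, edgeR adjusted p = 0.549).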

How the data were processed

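RNA-seq was done on 6 libraries of sorted small pre-B cells, 3 WT and 3 ΔrsCBE. Per the labels' protocols, 1 µg of total RNA was depleted of ribosomal RNA and made into stranded libraries (SMARTer kit, Takara). The deposited table holds whole-number counts per gene symbol, not normalized, with 1 column per library. The submitters' processing notes name Trim Galore 0.6.10, STAR 2.7.11, HTSeq, DESeq2 and the build mm10, without roles. The strand setting and annotation are not given in the sources used here.

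Counts were tested with edgeR 4.0.16 in R 4.3.3: filterByExpr (minimum count 10), TMM scaling over the tested genes, glmQLFit with robust estimation, glmQLFTest for genotype, and Benjamini-Hochberg adjustment over 7792 genes. Standard errors come from the F statistic and intervals (95%) from its degrees of freedom. Log2 CPM used a prior count of 2. The fit was tested on simulated data. DESeq2 1.42.0 was an alternative, as were other scalings, filters, a looser threshold, a sex covariate, a replicate block and libraries left out.

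Named are members with an unadjusted p under 0.05 and, per symbol family, the most abundant and those with the highest and lowest log2 fold change. In each other splicing list the gene with the smallest p is named. Other members are named by level or role. Members and lists were chosen with earlier results of these data known. Coordinates and lengths come from GENCODE M21 (GRCm38, the assembly of mm10), and shared 50-base stretches from its transcripts on both strands. Lists of plasma cell, mature B cell and pro-B or large pre-B cell markers had 3, 2 and 2 tested genes and 0 called, with summed levels of 1133 to 1258, 283 to 368 and 694 to 724 CPM in WT and 1134 to 1430, 263 to 341 and 748 to 809 CPM in ΔrsCBE.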

Additional observations from a re-analysis of the deposited data

How the results depend on the processing

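Over 16 alternatives, the count of splicing protein genes past the threshold stayed at 0 except at 1 (Hnrnpk) with the sex covariate and at 1 without the 2 libraries with Xist counts. In both, the genotype effect rests on ΔrsCBE replicate 1, and the median log2 fold change of the members was -0.069 and -0.068. With 1 library left out in turn the count was 0 throughout and the median ran from -0.04 to 0.01. The count over all genes was 132, moved to 87 with the sex covariate, and ran from 59 (without WT replicate 3, and without ΔrsCBE replicate 3) to 187 (without ΔrsCBE replicate 2). For other splicing genes, the fit with a sole ΔrsCBE library is left aside here. Those past the threshold numbered 1 (Rbm25) with the filter of CPM 1 or more in 3 libraries. They numbered 1 with the sex covariate (Pnn) and 1 at an adjusted p under 0.1 (Magoh). With 1 library left out they numbered 0 to 5, the 5 without ΔrsCBE replicate 1, where 157 of 8087 tested genes passed. The cause was not tested. Among 20 named members, 16 kept their sign in every alternative. Snrnp200, at -0.01, had a value of 0.0041 with library size alone, 0.0046 without a count filter, 0.014 with the CPM filter, 0.14 with the sex covariate and 0.15 without the libraries with Xist counts, and -0.090 to 0.069 with 1 library left out. Left-out libraries also turned the sign of Sf3a3 (-0.44 to 0.060), Sf3b5 (-0.0020 to 0.94) and Hnrnpk (-0.45 to 0.018). Equal replicate numbers did not pair the libraries (correlations of deviations of 0.00908 to 0.0197), and the replicate block gave 136 genes in all, 0 splicing protein genes, 0 other splicing genes and a median of -0.02. For 7 of the 9 members under 200 counts, the interval reached 2-fold, so a difference of that size was not excluded in the direction reached.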

Other observations

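Outside the Srsf family, 24 genes of SR-related proteins and of the kinases that phosphorylate SR proteins were tested. Of these, 17 had a log2 fold change above 0, against 4034 of all 7792 tested genes. The list's score was -0.05 to -0.03 in WT, 0.15 and 0.08 in ΔrsCBE replicates 2 and 3, and -0.11 in ΔrsCBE replicate 1. The genes that follow were chosen after their values were seen. Rbm25, a U1-associated regulator, had 284, 336 and 257 CPM in WT and 293, 480 and 399 CPM in ΔrsCBE. Its log2 fold change was 0.44 (edgeR adjusted p = 0.2002) and 0.62 without ΔrsCBE replicate 1 (edgeR adjusted p = 0.00592). In the fit without that library, 157 of 8087 tested genes passed the threshold. Pnn, which encodes pinin of nuclear speckles, had 157, 125 and 146 CPM in WT and 71.4, 179 and 172 CPM in ΔrsCBE. In Pnn, as in Hnrnpk, ΔrsCBE replicate 1 lay below every other library. In Pnn both other ΔrsCBE libraries lay above the WT range, and in Hnrnpk 1 lay above it and 1 within. Within ΔrsCBE, sex and library cannot be told apart, since replicate 1 is also the 1 ΔrsCBE library without Xist counts above 1. The WT libraries, also with at most 1 Xist count, had 125 to 157 CPM of Pnn and 642 to 763 CPM of Hnrnpk. The part of sex was not tested.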
